A study of Mus musculus with 10 samples.

Results

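Leptin and 9 other genes by which adipocytes are known were followed in quadriceps RNA of 10 mice, 5 given a supplement called 1C-MIM and 5 Controls. The 10 genes, among 24063 symbols in the tables, are the adipokines Lep, Adipoq, Retn and Cfd, the receptor gene Adrb3, the lipid droplet and fatty acid carrier genes Plin1, Cidec and Fabp4, the nuclear receptor gene Pparg and the thermogenic gene Ucp1. They were chosen by name, with earlier results of these data known, and Lep was among them because it stood out in the contrast described here. Its difference between the groups is therefore given as a description, with no test. Where a symbol had several transcripts, the transcript with the largest count summed over the 10 libraries stood for the gene, which is how the counts entered the choice. Plin1, Cidec, Cfd, Retn and Pparg had 2 transcripts each with nearly the same counts, and the other genes had 1.

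The 1C-MIM mice drank water carrying the supplement for 1 to 3 months, and the Control mice drank water of the same facility's stock. All were wild-type C57BL animals aged 17 to 20 months, and in all of them a tibialis anterior muscle was injured, while the RNA came from a quadriceps left uninjured. The labels do not say what 1C-MIM contains, how long after the injury the muscle was taken, or how much fat or fascia went into each sample. The animals are numbered singly in the deposited names, so n counts animals. Cages held up to 5 mice and 150 mL of water, so the water was shared within a cage. The number of cages behind each group is not given, and animals of a group may not be independent. The libraries held 29108462 to 31771296 counts in 1C-MIM and 28521254 to 30595120 in Control. The tissue carried its own markers in every library. The summed level of 10 myofibre genes, such as Acta1, Ckm and Myh4, was 199599 to 227171 CPM (counts scaled to library size with TMM factors) in 1C-MIM and 188284 to 216608 CPM in Control.

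Adipocytes lie between the fibres and fascicles of a muscle as well as in fat depots. They store triglyceride in a large droplet coated by perilipin 1 (Plin1) and enlarged by the droplet fusion protein CIDEC, move fatty acids on FABP4, and depend on the nuclear receptor PPAR-gamma for their identity. They secrete leptin, which reports fat stores to the brain through the receptor LEPR and the JAK2-STAT3 pathway, adiponectin (Adipoq), which acts on ADIPOR1 and ADIPOR2 in muscle, resistin (Retn, an adipocyte product in mice), and adipsin (Cfd), the protease that starts the amplification loop of the alternative complement pathway. The beta-3 adrenergic receptor (Adrb3) passes sympathetic signals to lipolysis, and UCP1 uncouples respiration in brown and beige adipocytes.

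The bases just upstream of the transcription start are shown for a gene that was higher, a gene that was lower and a gene that differed by less than the spread, since these 3 adipokine genes moved apart. RefSeq promoters of build GRCm38.p6 were at hand for 8 of the 10 genes. The 250 bases upstream of the start were searched on both strands for TTGCGCAA and TTGCNNAA (C/EBP motifs, the first being a case of the second), 2 AGGTCA half-sites with 1 base between them (the direct repeat that PPAR-gamma binds with RXR), TGACGTCA (the cAMP response element), TATAAA and CCAAT. Capitals mark every match. The Lep window lies at chr6:29059971-29060220, the Cfd window at chr10:79890603-79890852 and the Adipoq window at chr16:23146286-23146535, all on the plus strand.
Lep: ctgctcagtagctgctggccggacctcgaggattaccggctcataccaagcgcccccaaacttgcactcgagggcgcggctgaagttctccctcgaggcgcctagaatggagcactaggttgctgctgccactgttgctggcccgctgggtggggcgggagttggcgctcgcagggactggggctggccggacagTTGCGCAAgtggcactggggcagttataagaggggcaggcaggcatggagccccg
Cfd: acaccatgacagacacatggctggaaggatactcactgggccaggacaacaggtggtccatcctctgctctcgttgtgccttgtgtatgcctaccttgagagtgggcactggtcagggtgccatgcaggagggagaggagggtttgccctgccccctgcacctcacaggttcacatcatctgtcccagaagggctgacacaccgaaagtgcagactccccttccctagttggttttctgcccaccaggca
Adipoq: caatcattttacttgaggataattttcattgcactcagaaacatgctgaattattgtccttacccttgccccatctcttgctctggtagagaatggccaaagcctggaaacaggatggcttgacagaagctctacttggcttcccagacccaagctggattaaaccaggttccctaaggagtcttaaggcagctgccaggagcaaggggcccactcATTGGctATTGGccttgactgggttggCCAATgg
The Lep window held TTGCGCAA at positions -55 to -48 from the start, a motif found in 54 of 32851 mouse promoter windows of the same length (0.164%). The Adipoq window held CCAAT 3 times, at -34 to -30, -27 to -23 and -7 to -3, and this motif occurs in 33.8% of all windows. None of the 6 motifs was in the Cfd window. In the upstream windows of the other members, TTGCNNAA, present in 9.56% of all windows, was found in Plin1 and Pparg (2 matches each) and in Cidec. Windows of Pparg also held TATAAA and CCAAT. The 8 genes had 11 windows, more than 1 each for Cidec and Pparg, while the share counts single windows. These matches are descriptions of the sequence and were not tied to binding or to the levels that follow.

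The genes fell into 2 kinds, a split made after the values were seen. Adipoq, Plin1, Cidec, Fabp4 and Pparg differed between the groups by less than the spread between animals, with mean folds of 0.943 to 1.09. Against these nearly level genes, Lep was 2.68-fold higher in 1C-MIM. Cfd fell to 0.568-fold and Adrb3 to 0.560-fold of Control, and Retn was at 0.739-fold without passing the test. These 3 are adipocyte genes as well, so the amount of adipocytes was not shown to be level. Ucp1 was near the limit of detection in both groups. Of the 8 members other than Lep that were tested, 0 were called higher and 2 lower (edgeR quasi-likelihood test, Benjamini-Hochberg adjusted p under 0.05 over 13880 genes). Over all tested genes 21.6% were called in either direction, 9.78% higher and 11.8% lower, so the 2 of 8 stand against a background in which calls were common. At an unadjusted p under 0.05, 0 of the 8 were higher and 3 lower, against 17.9% and 19.6% of all tested genes. DESeq2 called 0 higher and 3 lower, against 12.9% and 13.0% of all tested genes. The median log2 fold change of these 8 members was -0.0027, against 0.0009 over all tested genes. In whole muscle, fewer adipocytes and less RNA of a gene per adipocyte cannot be told apart.

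**Figure D1:**
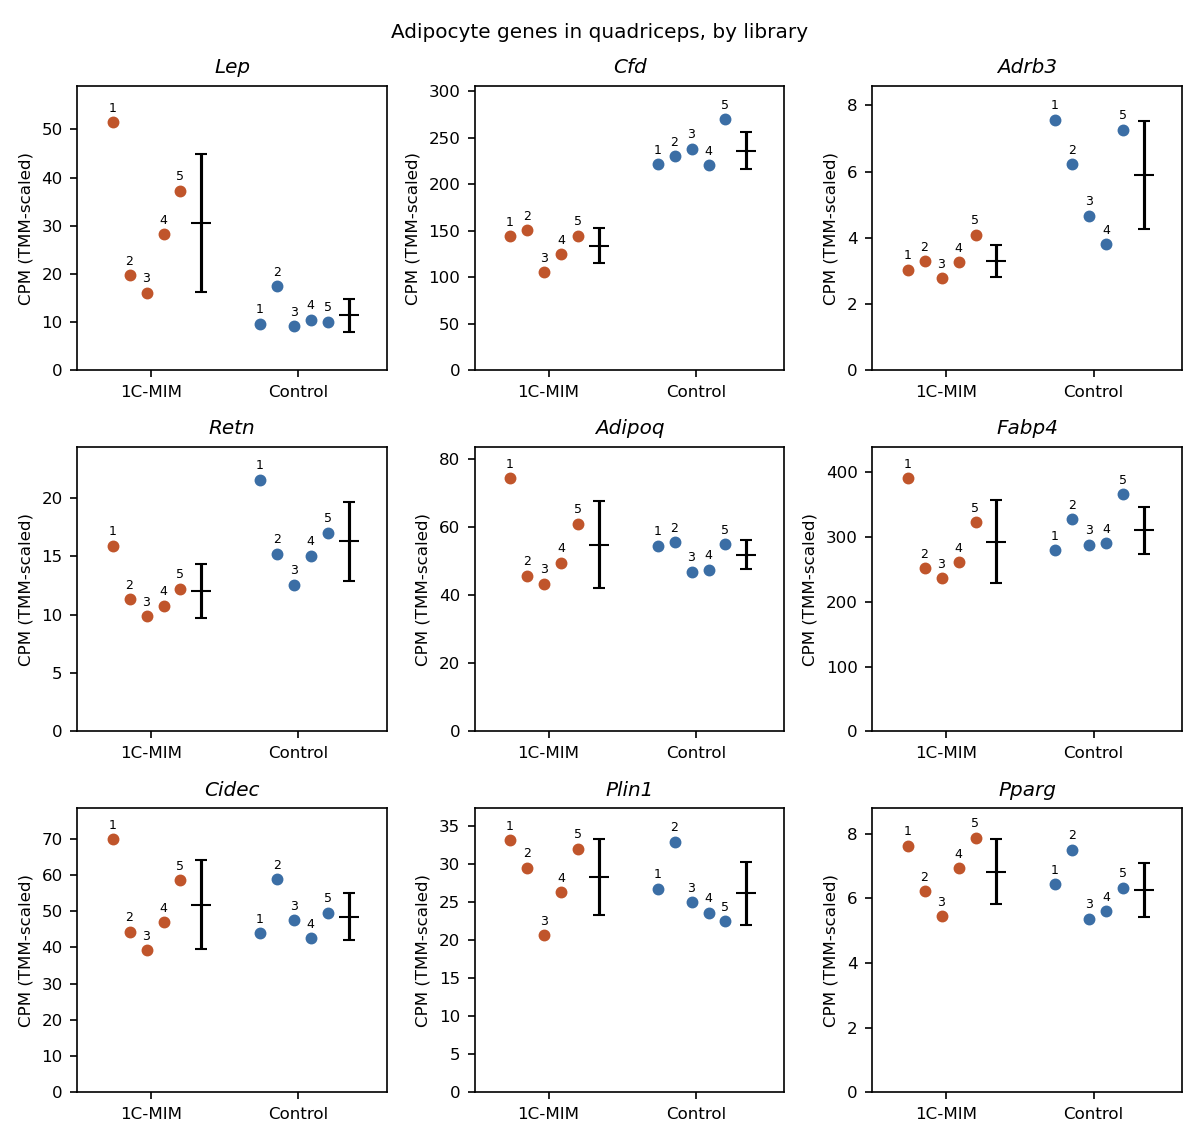
Each point is a library (number: replicate), on an axis of TMM-scaled CPM that starts at 0, with the group mean and SD (n = 5) beside the points. Lep is higher in 1C-MIM but Control 2 reaches 17.5 CPM, above the lowest 1C-MIM library at 16.1 CPM. Cfd is the gene whose groups are apart, at 106 to 151 CPM in 1C-MIM and 221 to 270 CPM in Control.

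Lep had 51.5, 19.7, 16.1, 28.3 and 37.3 CPM in 1C-MIM 1 to 5, against 9.65, 17.5, 9.20, 10.5 and 10.1 CPM in Control 1 to 5. All 1C-MIM libraries lay above 4 of the 5 Controls, and the groups overlapped only through Control 2. The group means were 30.6 ± 14.2 CPM in 1C-MIM and 11.4 ± 3.43 CPM in Control (SD, n = 5 each), a log2 fold change of 1.42 (SE 0.32). Its spread within 1C-MIM, a coefficient of variation of 46.6%, was the largest of the 9 tested members, and in Control it was 30.1%. Without 1C-MIM 1, its highest library, the log2 fold change was 1.16, and without Control 2 it was 1.63. The deposited animal numbers fall into a 200 and a 300 series, both present in both groups, and the log2 fold change of Lep was 1.27 in the first and 1.67 in the second.

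Cfd, the other adipokine with a large difference, had 144, 151, 106, 125 and 145 CPM in 1C-MIM 1 to 5, against 222, 230, 239, 221 and 270 CPM in Control 1 to 5. The highest 1C-MIM library lay well below the lowest Control, so the groups did not overlap, as for 14.6% of all tested genes. The means were 134 ± 18.7 CPM in 1C-MIM and 236 ± 20.1 CPM in Control (SD, n = 5 each). Cfd fell by 0.82 on the log2 scale (SE 0.09, edgeR adjusted p = 0.000179). Its log2 fold change was -0.78 in the 200 series and -0.86 in the 300 series of animals. The retained Cfd transcript has 927 bases, and with each library's trend of counts with transcript length removed the log2 fold change was -0.62 (SE 0.09, edgeR adjusted p = 0.000829). Macrophage genes were also lower in 1C-MIM as a group: 8 of 10 markers were called lower (80%, background 11.8%), and no marker was at 0. Their summed level was 162 to 233 CPM in 1C-MIM and 282.8 to 542 CPM in Control. Within 1C-MIM, the library with the lowest Cfd, 1C-MIM 3, had the highest sum, but it was the lowest 1C-MIM library for all 9 tested members. Among Controls, Control 3 had the highest sum, and its Cfd of 239 CPM was below that of Control 5 alone. The part of macrophages in the difference of Cfd was not tested.

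Retn had 15.9, 11.3, 9.86, 10.8 and 12.2 CPM in 1C-MIM 1 to 5, against 21.5, 15.2, 12.5, 15.0 and 17.0 CPM in Control 1 to 5. Most Controls lay above most 1C-MIM libraries, but 1C-MIM 1 lay above 3 of the 5 Controls, and the groups overlapped through it alone. Its log2 fold change of -0.44 (SE 0.15) missed the threshold (edgeR adjusted p = 0.0520), with a 95% interval of the fold from 0.591 to 0.923. Retn, with the shortest retained transcript of the 10 at 582 bases, was at -0.25 once the length trend was removed (SE 0.13, edgeR adjusted p = 0.220). Its other transcript, with nearly the same counts, has 1138 bases, and the removal was not run with that length. Adipoq had 74.2, 45.7, 43.3, 49.5 and 60.8 CPM in 1C-MIM 1 to 5, against 54.4, 55.5, 46.8, 47.4 and 54.8 CPM in Control 1 to 5. The Control values lay inside the wider range of the 1C-MIM values. The log2 fold change of Adipoq was 0.08 (SE 0.13, edgeR adjusted p = 0.690), and its 95% interval allows folds from 0.868 to 1.29.

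Adrb3, the receptor among these genes, had 3.04, 3.30, 2.79, 3.27 and 4.10 CPM in 1C-MIM 1 to 5, against 7.56, 6.23, 4.66, 3.81 and 7.27 CPM in Control 1 to 5. Only Control 4 reached into the range of the 1C-MIM libraries, below 1C-MIM 5. The 84 to 124 reads behind the 1C-MIM values and 119 to 221 behind the Control values make it the least deeply counted of the tested members. Adrb3 fell by 0.84 on the log2 scale (SE 0.18, edgeR adjusted p = 0.00789). The log2 fold change was -1.01 among the 200 series of animals and -0.58 among the 300 series, and -0.57 without Control 1 and Control 5 together (edgeR adjusted p = 0.0400), the Controls with the highest Adrb3. Its transcript of 2795 bases is long, and removing the length trend left the value at -0.84.

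The droplet, carrier and nuclear receptor genes were level within their spread. Plin1 had 20.7 to 33.2 CPM in 1C-MIM and 22.6 to 33.0 CPM in Control, with a log2 fold change of 0.11 (SE 0.13). Cidec had 39.3 to 69.8 CPM in 1C-MIM and 42.5 to 58.8 CPM in Control (0.10, SE 0.14), and Fabp4 had 236 to 390 CPM in 1C-MIM and 279 to 365 CPM in Control (-0.08, SE 0.13). Pparg had 5.45 to 7.87 CPM in 1C-MIM and 5.37 to 7.50 CPM in Control (0.13, SE 0.12). For each of these 4 genes the groups overlapped almost in full and edgeR adjusted p was 0.467 to 0.666. The 95% intervals of the fold reach from 0.776 at the lowest, for Fabp4, to 1.33 at the highest, for Cidec. A difference within a gene's own interval is not excluded. Fabp4 is also made by capillary endothelium, where 5 of 10 markers were called higher (50%, background 9.78%). Their summed level was 344 to 377 CPM in 1C-MIM and 253 to 331 CPM in Control, with no marker at 0. The part of endothelium in the level of Fabp4 was not tested.

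Ucp1 had 0, 5, 1, 0 and 1 reads in 1C-MIM 1 to 5, against 0, 4, 0, 1 and 1 reads in Control 1 to 5. With 13 reads over all libraries it did not pass the filter on low counts and no difference was detectable at this depth. The other 9 members passed it in both groups.

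**Figure D2:**
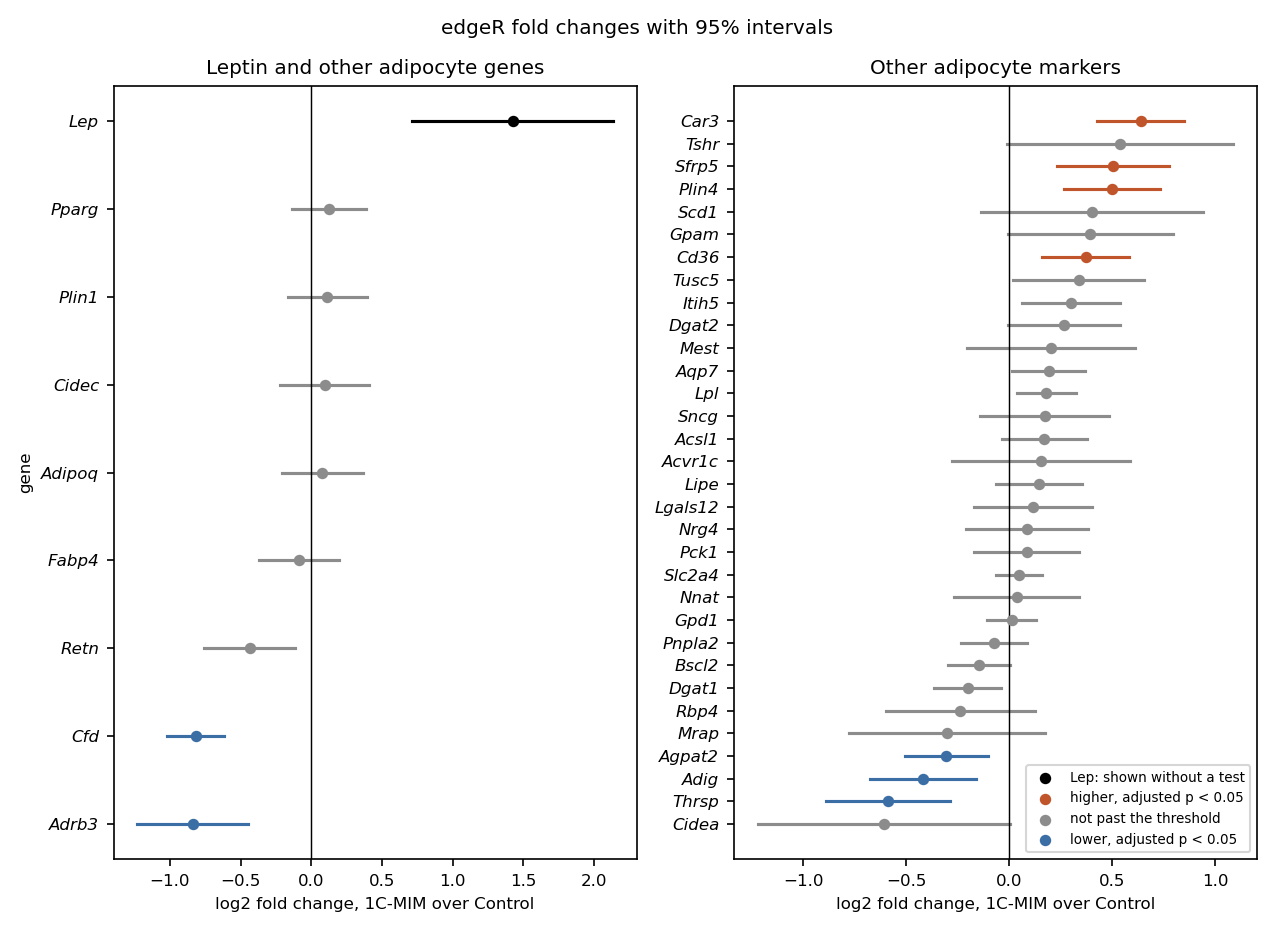
Points are log2 fold changes of 1C-MIM over Control with their 95% intervals from the edgeR fit. The 9 members that passed the filter are on the left and 32 other adipocyte markers on the right. Lep was chosen from this contrast, so its interval is a description and no test. Lep at 1.42 stands far from the 5 level members between -0.08 and 0.13, and Cfd at -0.82 and Adrb3 at -0.84 lie on the other side.

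Levels of different genes are compared here by the authors' TPM, which are scaled for transcript length. Over all libraries the order of the mean TPM was Fabp4 at 462, Cfd at 197, Adipoq at 42.6, Cidec at 28.8, Retn at 23.9, Plin1 at 14.5, Lep at 6.33, Pparg at 3.48, Adrb3 at 1.62 and Ucp1 at 0.0270. The place of Retn rests on its retained transcript of 582 bases, and its other transcript of 1138 bases was not ranked. Several neighbours in this order were not separated beyond their spread. Cidec and Retn overlapped in both groups, at 22.6 to 36.9 and 16.8 to 24.8 TPM in 1C-MIM and at 24.5 to 34.3 and 22.3 to 36.9 TPM in Control. Lep was seventh by mean TPM in both groups, between Plin1 and Pparg, but its distance to Pparg differed: it had 4.90 to 14.4 TPM in 1C-MIM, above the 2.90 to 4.11 TPM of Pparg, and 2.78 to 5.38 TPM in Control, where Pparg at 3.00 to 4.05 TPM lay inside its range. Cfd kept the second place in both groups, with 145 ± 22.9 TPM in 1C-MIM and 250 ± 13.2 TPM in Control (SD, n = 5 each).

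Part of the members also varied together from animal to animal, with Cfd and Adrb3 doing so less. 1C-MIM 3 was the lowest 1C-MIM library for all 9 tested members, and 1C-MIM 1 was the highest for 6 of them. Among Controls, Control 2 was the highest for 5 of 9, and Control 3 and Control 4 held 7 of the 9 lowest values. As deviations from the group means over 10 libraries, Lep had a Pearson r of 0.94 with Cidec, 0.88 with Adipoq, 0.88 with Pparg, 0.82 with Fabp4 and 0.81 with Plin1, and of 0.49 with Retn, 0.40 with Cfd and 0.20 with Adrb3. By the same measure Adipoq had an r of 0.92 with Fabp4, 0.91 with Cidec, 0.81 with Pparg, 0.77 with Retn and 0.67 with Plin1, and of 0.49 with Cfd and 0.41 with Adrb3, so the place of Retn depended on the gene it was set against. By likeness to Lep in this measure, Retn ranked 1834, Cfd 2727 and Adrb3 4854 of 13879 genes. These values describe 10 libraries that share their scaling, and no p is given for them.

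**Figure D3:**
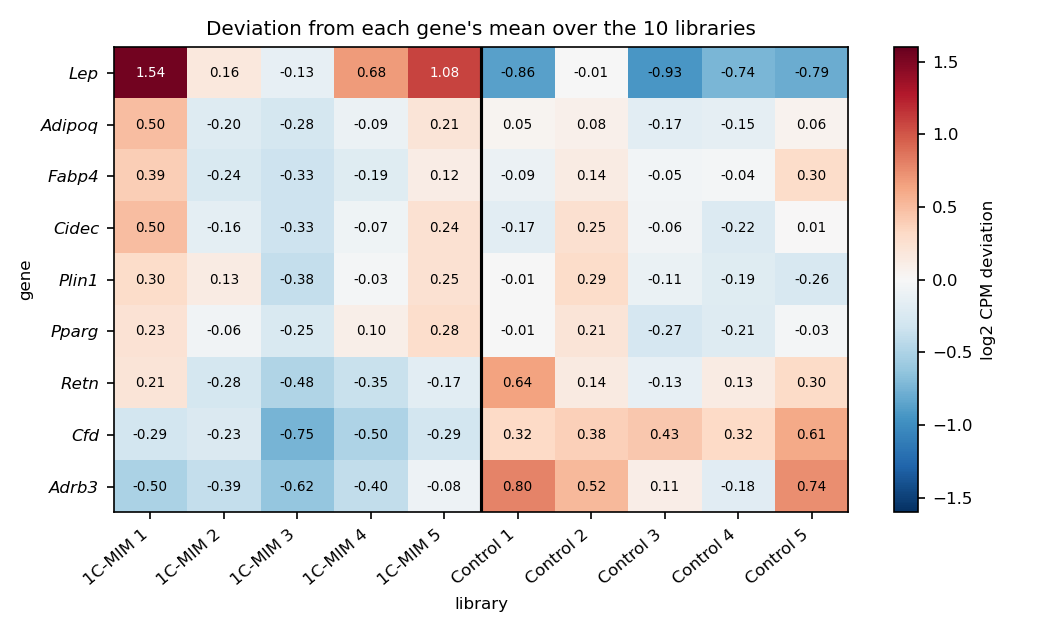
Each cell is the log2 CPM of a gene in a library minus the mean of that gene over the 10 libraries (red above, blue below, 1C-MIM left of the line). 1C-MIM 1 and 1C-MIM 5 are above the mean for Lep and for the 5 adipocyte genes below it in the picture, while Cfd is below its mean in all 1C-MIM libraries and above it in all Controls.

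Adipoq differed little between the groups. By deviations from the group means it varied with Fabp4, Cidec and Pparg, but less with Cfd (r = 0.49) and Adrb3 (0.41). The members were also expressed as reads per 100 Adipoq reads of the same library. This measure needs no library scaling and was chosen after the values were seen. Lep then had 69.4, 43.2, 37.3, 57.2 and 61.2 reads per 100 Adipoq reads in 1C-MIM 1 to 5, against 17.7, 31.5, 19.7, 22.2 and 18.5 in Control 1 to 5. The overlap seen in CPM was gone, since 1C-MIM 3 was low in Adipoq too. Adrb3 had 4.10 to 7.21 reads per 100 Adipoq reads in 1C-MIM and 8.05 to 13.9 in Control, and the groups were likewise apart. Retn had 20.1 to 24.7 in 1C-MIM and 26.8 to 39.6 in Control, and Cfd 195 to 330 in 1C-MIM and 408 to 510 in Control. In this measure 4 of 8 members did not overlap between the groups, and Lep, which was chosen for its difference, is among the 4. The share over all tested genes was 3.35%, against 14.6% in CPM, where only Cfd of the tested members was apart. Adipoq had a coefficient of variation of 23.4% within 1C-MIM, and dividing by it spreads genes that do not vary with it. The 4 of 8 and the 3.35% are therefore not a like comparison. The length trend, on which the value of Retn depended, was not removed from these ratios. Cidec stood at 90.7 to 97.0 reads per 100 Adipoq reads in 1C-MIM and 80.7 to 106 in Control, and Fabp4 at 526 to 550 in 1C-MIM and 513 to 666 in Control. Ratios show unequal change and do not say which of the pair moved.

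**Figure D4:**
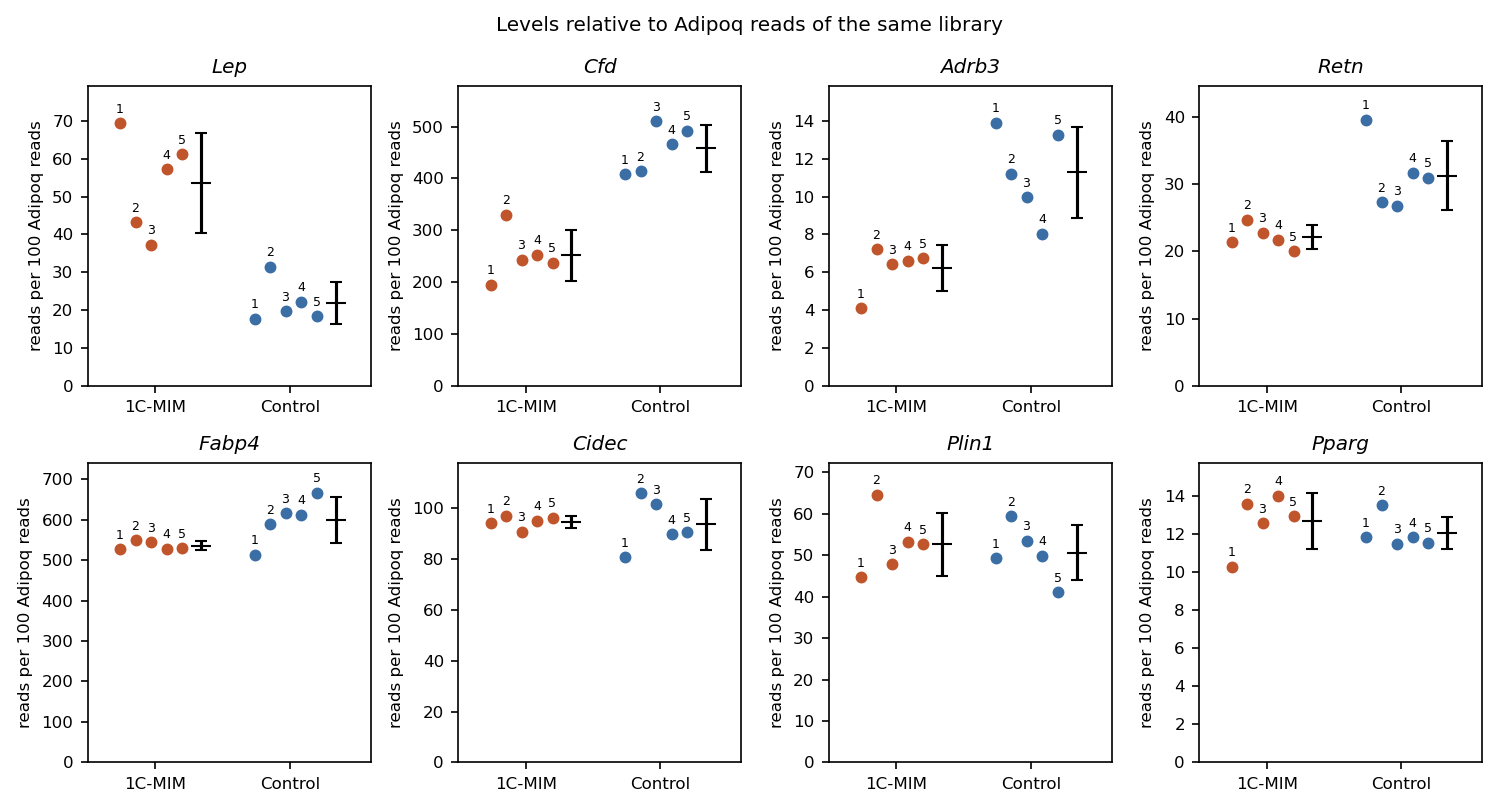
Reads of each gene per 100 Adipoq reads of the same library, on axes that start at 0, with group means and SD (n = 5). In the upper row Lep is above all Controls in every 1C-MIM library, and Cfd, Adrb3 and Retn are below them; in the lower row Fabp4, Cidec, Plin1 and Pparg overlap between the groups.

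Other adipocyte markers were called in both directions, at shares near the background. Of 32 such genes, all tested, 4 were called higher (12.5%, background 9.78%) and 3 lower (9.38%, background 11.8%), while 25 missed the threshold. At an unadjusted p under 0.05 (edgeR), 8 of the 32 were higher and 4 lower, against 17.9% and 19.6% of all tested genes. Their median log2 fold change was 0.15. Their summed level was 4686 to 5266 CPM in 1C-MIM and 3981 to 4550 CPM in Control, without overlap. Car3, described next, is among the largest terms of this sum. Car3, a carbonic anhydrase abundant in fat and in slow fibres, had 877 CPM in 1C-MIM and 563 CPM in Control, a rise of 0.64 on the log2 scale (SE 0.10) with an edgeR adjusted p of 0.00128. The perilipin Plin4, also abundant in muscle, rose by 0.50 (SE 0.11), and Sfrp5, a secreted WNT antagonist of adipose tissue, rose by 0.51 (SE 0.13). The lipogenic regulator Thrsp fell by 0.59 (SE 0.14), to 20.2 CPM in 1C-MIM against 30.4 CPM in Control. Cd36, a fatty acid transporter, rose by 0.37 (SE 0.10), and Adig (-0.42, SE 0.12) and the acyltransferase Agpat2 (-0.30, SE 0.09) were lower, these 3 being named after their values were seen. The lipases Lipe (0.15, SE 0.10) and Pnpla2 (-0.07, SE 0.07), which release stored fat, did not pass the test.

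Among 15 transcription factors of fat cell formation, 0 were called lower (background 11.8%) and 10 missed the threshold. The other 5 were called higher (33.3%, background 9.78%). They were the sterol response factor Srebf1 (0.29, SE 0.07), the glucocorticoid-induced Klf9 (0.50, SE 0.12), Stat5b (0.23, SE 0.06), Rxra, the partner of PPAR-gamma (0.22, SE 0.06), and Ebf2, a factor of brown fat precursors (0.56, SE 0.16). At an unadjusted p under 0.05, 7 of the 15 were higher and 2 lower, against 17.9% and 19.6% of all tested genes. The further ones were Klf15 and Zfp423 (higher) and Stat5a and Nr1h3 (lower), named after their values were seen. In the PPAR family and its cofactors, 1 of 9 was higher (11.1%, background 9.78%), again Rxra, and 0 were lower (background 11.8%). Ppara (0.11, SE 0.11) and Ppard (-0.03, SE 0.06) did not pass the test.

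In the list of leptin receptor and signalling genes, 0 of 11 were called higher (background 9.78%) and 4 lower (36.4%, background 11.8%). The other 7 missed the threshold, and the median log2 fold change of the list was -0.28. Lepr had 3.61 CPM in 1C-MIM and 2.21 CPM in Control, a log2 difference of 0.70 (SE 0.31) that missed the threshold (edgeR adjusted p = 0.118). Its values of 1.69 to 6.32 CPM in 1C-MIM and 1.57 to 2.90 CPM in Control overlapped. Socs3, the feedback inhibitor that leptin and other cytokines induce, had 2.49 to 3.34 CPM in 1C-MIM and 19.0 to 46.3 CPM in Control, a difference that had been seen in these data earlier. Ptpn2, a phosphatase of the JAK-STAT pathway, fell by 0.30 (SE 0.07), Leprot, whose gene shares its promoter with Lepr, fell by 0.28 (SE 0.07), and Cish, a target of STAT5, fell by 1.03 (SE 0.31). Jak2 (0.23, SE 0.11) and Stat3 (-0.21, SE 0.07, edgeR adjusted p = 0.0527) did not pass the test. Of the 5 receptor genes for adiponectin and resistin and their adaptor, 0 were higher, 1 was lower (20%, background 11.8%) and 4 did not pass. Cap1, known in human cells to bind resistin, fell by 0.17 (SE 0.06). Adipor1 had 363 CPM in 1C-MIM and 351 CPM in Control (0.05, SE 0.06), Adipor2 had 204 CPM in 1C-MIM and 184 CPM in Control (0.15, SE 0.06), and Cdh13, which binds adiponectin multimers, had 66.1 CPM in 1C-MIM and 58.4 CPM in Control (0.18, SE 0.08).

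Of 14 genes of beta-adrenergic lipolysis, 13 were tested. Of these, 2 were called higher (15.4%, background 9.78%), 0 were called lower (background 11.8%) and 11 missed the threshold. The lipase Mgll rose by 0.23 (SE 0.07) and the adenylyl cyclase Adcy6 by 0.27 (SE 0.08). Adrb1, a beta receptor named after its values were seen, had 0.215 CPM in 1C-MIM and 0.278 CPM in Control and was too low to test.

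Relatives of the members in their own families gave a mixed picture. Among 9 perilipin, CIDE and droplet genes, 1 was called higher (Plin4) and 1 lower (11.1% each, background 9.78% and 11.8%), and 7 missed the threshold. The one that fell was Fitm1, a droplet protein of muscle (-0.28, SE 0.07), and Plin2 (-0.15, SE 0.06), Plin3 (-0.10, SE 0.07), Plin5 (-0.04, SE 0.20) and Cidea (-0.61, SE 0.29) did not pass. Of 6 other fatty acid binding proteins, 2 had enough reads: Fabp5, found in macrophages, endothelium and fat, fell by 0.83 (SE 0.11), with 4.57 to 5.70 CPM in 1C-MIM and 7.47 to 10.99 CPM in Control, and the muscle form Fabp3 was at -0.07 (SE 0.15). The uncoupling protein Ucp2, abundant in immune cells, fell by 0.64 (SE 0.10), to 18.5 CPM in 1C-MIM against 28.8 CPM in Control, and Ucp3, the muscle form, was at 0.08 (SE 0.08). The macrophage sums given beside Cfd were lower in 1C-MIM, as were Fabp5 and Ucp2. Control 3, with the highest sum at 542 CPM, had the lowest Control value of Fabp5 and the highest of Ucp2 (33.5 CPM). The part of macrophages in these differences was not tested. By mean TPM, Ucp3 stood at 105 and Ucp2 at 5.65, against 0.0270 for Ucp1.

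Of 20 brown and beige fat genes, 17 were tested. Of these, 1 was higher (5.88%, background 9.78%) and 4 were lower (23.5%, background 11.8%). The other 12 did not pass the test, and the median of the list was -0.11. Besides Ucp2, the lower genes were Cox7a1 (-0.43, SE 0.09) and Cox8b (-0.32, SE 0.10), cytochrome oxidase subunits shared by muscle and brown fat, and the deiodinase Dio2, which had 0.728 CPM in 1C-MIM and 1.26 CPM in Control (-0.79, SE 0.20). The gene that rose was Ebf2. Cidea, a marker of brown fat, had 0.851 CPM in 1C-MIM and 1.30 CPM in Control, and Prdm16, a regulator of brown fat identity named after its value was seen, was at -0.12 (SE 0.14).

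The genes whose log2 CPM most resembled Lep over the 10 libraries were Psmd2, a proteasome subunit (Pearson r = 0.98), the fatty acid desaturase family gene Fads3 (0.96), Mreg (0.96), 2310065F04Rik (0.95) and the potassium channel Kcna7 (0.95). Measured by deviations from the group means, they were Cidec (0.94), Psmd2 (0.94), Pcp2 (0.94), Cyth1 (0.94) and Dhodh (0.93). For Adipoq they were Nnat (0.95), Snrpn and Snurf, which share reads (0.94 each), Rad52 (0.92) and Cidec (0.91). By deviations from the group means they were Nudcd2 (0.97), Timm44 (0.96), Nnat (0.95), and Snrpn and Snurf (0.95 each). Each list is the top 5 of 13879 genes, so the size of these values reflects that choice and no p is given.

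**Figure D5:**
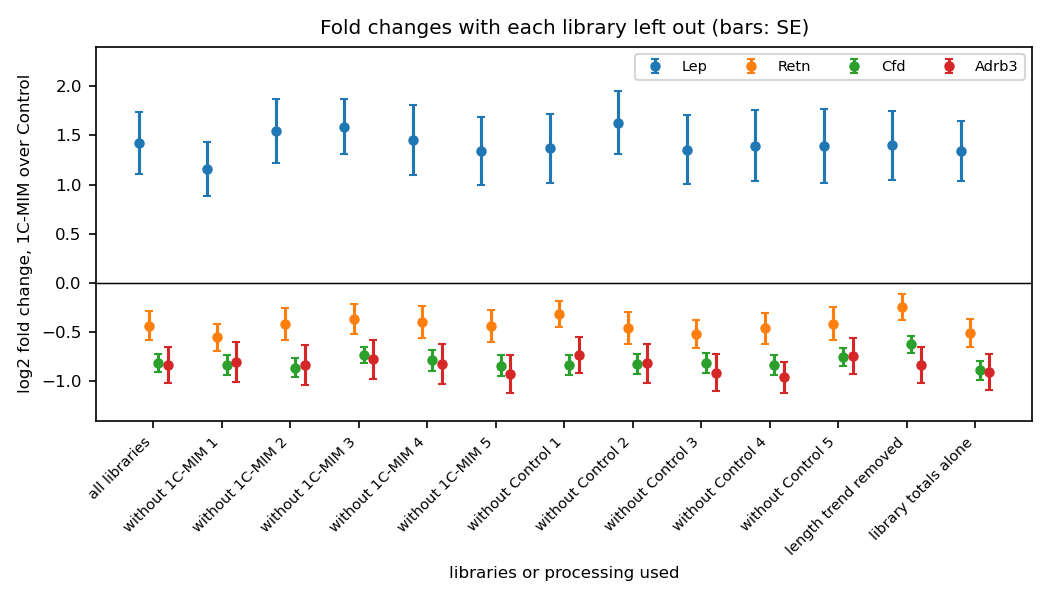
Log2 fold changes of 1C-MIM over Control for Lep, Retn, Cfd and Adrb3, with their SE, with all libraries, with each library left out, and with 2 other ways of processing. Lep stays between 1.16 and 1.63, Cfd between -0.89 and -0.62 and Adrb3 between -0.96 and -0.73, while Retn comes closest to 0 with the length trend removed, at -0.25.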

How the data were processed

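Total RNA of quadriceps was sequenced in 10 libraries, grouped by their titles. The deposited count values are, per the file headers, whole numbers for each of 33984 RefSeq transcripts, not normalized by the authors. The deposited FPKM values, per kilobase and library total, served to recover transcript lengths, and the TPM values as deposited, which sum alike over libraries, to compare levels between genes. Per the submitters' processing notes, build GRCm39 was used with STAR, featureCounts, Subread 2.0.1, DESeq2 1.28.0, bedtools 2.30.0, Salmon 1.5.2, Trim Galore 0.6.7, StringTie 2.2.1, Picard 2.27.4 and SAMtools 1.15.1, listed without roles. Which of them counted, and whether strand was used, is not given. A read that fits several isoforms appears under each, so 1 transcript per symbol was kept. No 2 libraries agreed within sampling noise.

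Counts were filtered with filterByExpr, scaled with TMM and compared with the robust quasi-likelihood F test of edgeR 4.0.16 (R 4.3.3), adjusted over 13880 genes. The fit was tested on simulated data. SE is the log2 fold change divided by the square root of F, and 95% intervals use the fit's degrees of freedom. Library totals of 28521254 to 31771296 counts limit precision for genes of few reads. Alternatives were DESeq2 1.42.0, limma 3.58.1 (voom), other scalings and filters, the replicate number or animal series as a term, libraries left out, counts summed over transcripts, and removal of each library's length trend (splines with 3 inner knots, after log2 CPM with a prior count of 2). Named were all 10 members, their receptors and relatives, and up to 4 called genes per list with the smallest p. Some further genes were named outside this rule, such as Cox8b, Lipe, Pnpla2, Jak2, Stat3, Ppara and Ppard. The members, lists, rules and alternatives were chosen with earlier results of these data known. Promoters are RefSeq's, build GRCm38.p6, used for sequence only.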

Additional observations from a re-analysis of the deposited data

Results flagged for a closer look

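Within groups of 5 libraries, 34 sets of values were checked for a library far from the rest, and chance flags about 1 in 20 such sets. Lep in Control 2 stood far above the other Controls, at 17.5 CPM against 9.20 to 10.5 CPM. Adrb3 in 1C-MIM 1 was low relative to Adipoq, at 4.10 reads per 100 Adipoq reads against 6.44 to 7.21 in the other 1C-MIM libraries. Pparg in Control 2 was high by the same measure, at 13.5 reads per 100 Adipoq reads against 11.5 to 11.8 in the other Controls.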

How the results depend on the processing

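Over 23 alternatives Cfd and Adrb3 stayed lower and past the threshold (edgeR, DESeq2 or limma adjusted p of up to 0.00132 for Cfd and 0.0400 for Adrb3). Lep, chosen from this contrast and given as a description, had log2 fold changes of 1.16 to 1.63. Retn stayed lower at -0.55 to -0.25 and passed the threshold in 8 of the 23, with adjusted p of 0.00136 to 0.242. Adipoq, Plin1, Cidec, Fabp4 and Pparg were never called, at -0.21 to 0.23. Members called lower besides Lep numbered 2 to 3 in every alternative, and 0 were called higher, also by DESeq2 and limma. Within the 200 and the 300 series of animals, Adrb3 was lower but not past the threshold (edgeR adjusted p = 0.0531 and 0.287).

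Over all genes, 1357 were called higher and 1642 lower; library totals alone gave 606 higher and 2896 lower, and leaving out Control 1 and Control 5 together gave 832 and 976. Leaving out single libraries gave 739 to 1558 higher and 941 to 1885 lower. For the members these gave 0 higher and 2 to 3 lower. Same-numbered libraries correlated at -0.0752 to 0.387, and 2 of 5 correlated best with their own number, so the numbers were not taken as pairs. With the replicate block, 3 members besides Lep were called lower, Retn being added (-0.43, edgeR adjusted p = 0.00136), and 1932 genes were higher and 1965 lower. Depth limits Ucp1, with 13 reads in all.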

Other observations

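Markers of other cells in the muscle gave these counts, beside 9.78% called higher and 11.8% called lower over all tested genes. Of 10 fibro-adipogenic progenitor genes, the connective tissue cells from which muscle adipocytes arise, 0 were called higher and 4 lower, 6 missed the threshold, and Pdgfra, their defining receptor, was at 0.03 on the log2 scale (SE 0.13). Their summed level was 1775 to 2567 CPM in 1C-MIM and 2042 to 2711 CPM in Control. Of 8 smooth muscle and pericyte genes 2 were higher, of 7 Schwann cell genes 1 was higher, and of 10 myofibre genes 3 were higher, with 0 lower in each of these lists. Of 7 epithelial genes, 3 were tested and 1, Trp63, was higher (0.53, SE 0.11). Krt5 and Krt14, keratins of skin and gland epithelium, were at 5.61 and 4.10 CPM in Control 4. They were at 0 in all 1C-MIM libraries and at most 0.137 CPM in the other Controls. Trp63, Krt5, Krt14 and the 4 progenitor genes called lower were named after their values were seen.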
